A study of Mus musculus with 8 samples.

Results

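The expression of 10 imprinted genes that govern growth of the embryo was compared between blood-forming clusters and endothelium of the mouse aorta. They comprise a ligand and regulators of the Igf pathway (Igf2, Igf2r, Grb10), the Notch-related ligand Dlk1, the cell cycle inhibitor Cdkn1c, the zinc finger factors Plagl1 and Peg3, the hydrolase-like gene Mest, and the long noncoding RNAs H19 and Meg3. The genes were chosen by name, as known imprinted growth genes, and make up 10 of the 24015 genes of the count table. An imprinted gene is transcribed mainly from the chromosome inherited from one parent, and the parental copies are told apart by DNA methylation laid down in the germ line. Igf2, Dlk1, Plagl1, Peg3 and Mest are expressed from the paternal copy and tend to promote growth, with Plagl1 as an exception that can also arrest the cell cycle. H19, Igf2r, Cdkn1c, Meg3 and, outside the brain, Grb10 are expressed from the maternal copy and mostly restrain growth. Reads here were counted per gene and not per allele, so the parental origin of the transcripts was not measured. Gene positions are given in NCBI37.

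RNA was measured in 8 libraries of 100 sorted cells each, made with Smart-seq2, a protocol that amplifies polyadenylated RNA from few cells and does not keep the strand. The cells came from the aorta-gonad-mesonephros (AGM) region with the vitelline and umbilical arteries of E11.5 mouse embryos on a C57BL/6 background, and embryos of one genotype were pooled. The 4 groups were clusters and endothelium of wild type embryos and the same cells of Sl/Sl embryos, with 2 libraries per group. Clusters were sorted as Ter119- VE-Cadherin+ c-Kit+ cells, and endothelium as Ter119- VE-Cadherin+ cells without c-Kit, CD41 and CD45. Sl/Sl embryos are homozygous for a Steel deletion that takes in Kitl, the gene of the Kit ligand, in every cell of the embryo, so an effect cannot be placed in one cell type. The labels number the 2 libraries of a group but do not tie them to embryos or sorts. The authors call them biological replicates and report 2 sorting experiments, without saying which library came from which. The p-values therefore measure the spread between these libraries. Pooling also leaves the spread between embryos unmeasured.

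Counts per library summed to between 8933236 and 13428214, and 12844 to 14309 genes had at least 1 count. In endothelium, Kitl had 1250 and 923 counts with the wild type genotype and 6 and 2 with Sl/Sl. In clusters it had 110 and 0 counts in wild type against 1 and 3 in Sl/Sl, so wild type clusters replicate 2 could not be told from Sl/Sl libraries by this gene. Of the genes of the sort markers, Kit had 2937 to 4392 counts in clusters and 538 to 1065 in endothelium, and Ptprc (CD45) had 1294 to 3908 and 6 to 16. Itga2b (CD41) did not separate the cell types, at 109 to 271 counts in clusters and 44 to 109 in endothelium. Cdh5 (VE-Cadherin), by which both cell types were sorted, had 4480 to 8240 counts in endothelium and 659 to 2531 in 3 cluster libraries, but 154 in wild type clusters replicate 2. The summed level of 12 endothelial markers was 6184 to 6990 CPM, counts scaled to a common library total, in endothelium. In clusters it was 1261 and 439 CPM with the wild type genotype, and 2892 and 782 CPM with Sl/Sl. The summed level of 16 mesenchymal markers was 5211 CPM in Sl/Sl clusters replicate 2 and 376 to 1796 CPM in the other libraries, so this library stood apart from its partner, at 414 CPM. CPM were scaled by library totals with TMM factors, a correction for differences in composition.

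Of the 10 genes, 8 had a promoter window in the RefSeq table used, which was made on GRCm38.p6 and holds the 250 bases before and the 50 bases after each annotated start. Shown are 4 windows, for Mest and Plagl1, which differed most between the cell types, for Igf2, which codes for the growth factor, and for Peg3, which holds a motif described here. Each of the 4 windows matched the NCBI37 genome, the build of the counts, exactly and at 1 place. Capitals mark CpG, the dinucleotide that carries the imprint when methylated, and sequences run 5′ to 3′ along the gene.
Mest, NCBI37 chr6:30687800-30688099, plus strand: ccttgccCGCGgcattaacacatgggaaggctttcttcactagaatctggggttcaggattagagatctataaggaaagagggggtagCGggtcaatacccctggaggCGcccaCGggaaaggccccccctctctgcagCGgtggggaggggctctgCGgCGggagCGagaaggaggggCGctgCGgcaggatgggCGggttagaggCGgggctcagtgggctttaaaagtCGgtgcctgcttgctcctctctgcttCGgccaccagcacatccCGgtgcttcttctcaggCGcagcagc
Plagl1, NCBI37 chr10:12810388-12810687, plus strand: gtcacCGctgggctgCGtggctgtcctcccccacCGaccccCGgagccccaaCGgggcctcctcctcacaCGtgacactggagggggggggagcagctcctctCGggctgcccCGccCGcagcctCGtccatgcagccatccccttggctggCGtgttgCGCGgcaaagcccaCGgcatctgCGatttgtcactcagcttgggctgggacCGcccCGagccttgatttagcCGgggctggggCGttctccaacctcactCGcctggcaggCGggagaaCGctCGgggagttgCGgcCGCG
Igf2, NCBI37 chr7:149844660-149844959, minus strand: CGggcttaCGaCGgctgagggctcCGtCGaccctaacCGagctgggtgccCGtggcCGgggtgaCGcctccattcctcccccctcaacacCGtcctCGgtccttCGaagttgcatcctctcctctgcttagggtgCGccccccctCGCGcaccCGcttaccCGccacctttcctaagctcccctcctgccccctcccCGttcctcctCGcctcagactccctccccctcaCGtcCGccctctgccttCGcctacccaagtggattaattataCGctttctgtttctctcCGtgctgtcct
Peg3, NCBI37 chr7:6683081-6683380, minus strand: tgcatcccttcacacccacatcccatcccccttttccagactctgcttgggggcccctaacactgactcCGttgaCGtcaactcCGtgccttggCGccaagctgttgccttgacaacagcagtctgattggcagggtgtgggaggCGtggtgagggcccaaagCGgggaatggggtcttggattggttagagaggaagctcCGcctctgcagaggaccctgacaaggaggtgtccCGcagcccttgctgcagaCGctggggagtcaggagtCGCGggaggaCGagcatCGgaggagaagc

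These windows held 17 CpG at Mest, 26 at Plagl1, 24 at Igf2 and 13 at Peg3. Where a gene had several windows, that with the most CpG was shown. The windows not shown held 7, 14 and 2 CpG at Igf2, and 8 and 17 at Mest. The 15 windows of the 8 genes had a median of 13 CpG, against 7 over all 32851 windows. The Mest window lies at a start 4544 bases inside the gene model that was counted, and the Igf2 window at a start 2231 bases inside it. The exons counted for both genes therefore span more than 1 start. GGGGCCCC, the core of the sequence that the Plagl1 protein is known to bind and the same on both strands, occurred in 1 of the 15 windows, in Peg3, with its first base 201 bases before the start. It occurred in 1.08% of all windows. A match is a description of the letters, and binding was not measured.

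Endothelium against clusters was the comparison in which these genes differed. Of the 10 genes, 6 were higher in endothelium (Mest, Plagl1, H19, Igf2r, Igf2 and Grb10), and none was lower. The count depended on the libraries used, since leaving out 1 library changed the call of Grb10, Igf2r, Peg3 or Meg3, as given below for each gene. Of all 13908 genes tested, 16.6% were called in this comparison and 8.48% were called higher in endothelium. All 10 genes passed the filter on low counts, the lowest value being 59 counts of Dlk1. The median log2 fold change of the 10 genes was 1.19, beside -0.07 over all genes tested. A gene was called at an adjusted p under 0.1 by the quasi-likelihood test of edgeR (Benjamini-Hochberg adjustment over all genes), and unless another is named the comparison is the mean over both genotypes. In RNA from 100 pooled cells, fewer cells that express a gene and less RNA per cell cannot be told apart. Together the 10 genes took 0.592% to 0.700% of all counts in endothelium and 0.0959% to 0.320% in clusters.

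**Figure D1:**
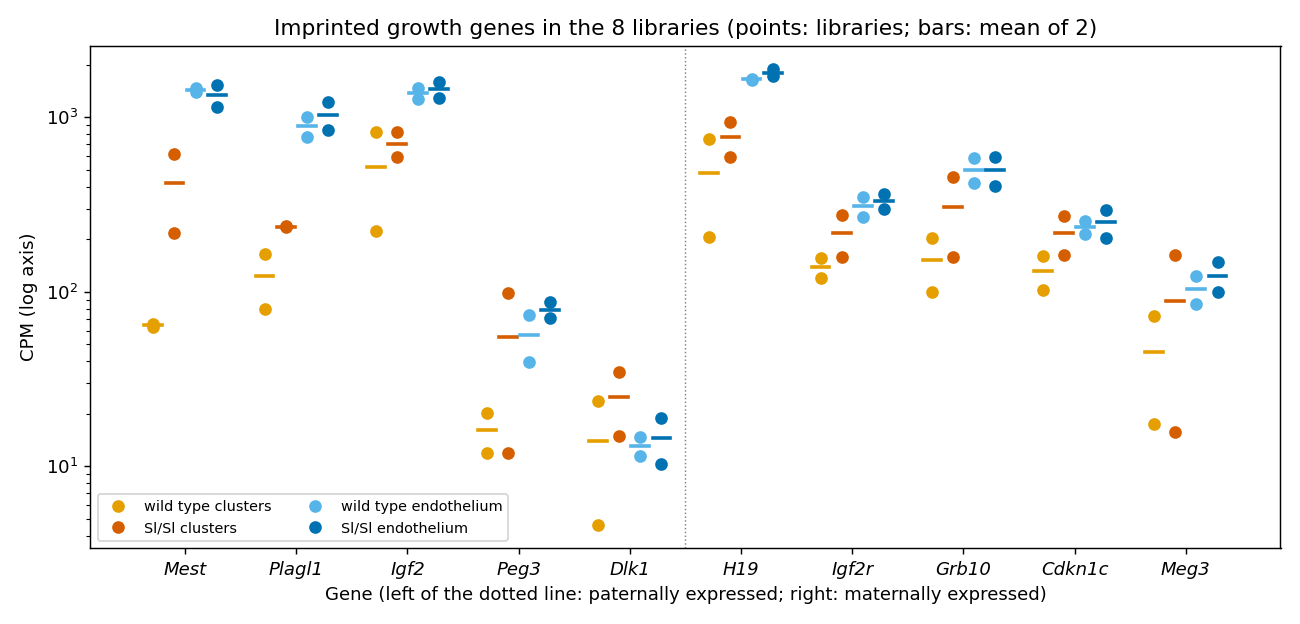
Level of each gene in each of the 8 libraries, in CPM on a log axis, with points for libraries and bars for the mean of 2. All 4 endothelium libraries lie above all 4 cluster libraries for Mest, Plagl1, Igf2 and H19, while Dlk1 in clusters (4.59 to 34.8 CPM) spans its range in endothelium (10.3 to 18.8 CPM).

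Mest (chr6:30683506-30698466, plus strand) codes for a protein of the alpha/beta hydrolase fold and had the largest difference of the 10 genes. Its level was 63.1 and 65.3 CPM in wild type clusters, 620 and 216 CPM in Sl/Sl clusters, 1395 and 1470 CPM in wild type endothelium, and 1143 and 1527 CPM in Sl/Sl endothelium. The cell types did not overlap, and the 2 wild type cluster libraries were close together and lowest. Mest was 8.44-fold higher in endothelium, a log2 fold change of 3.08 (SE 0.30, edgeR adjusted p = 0.000514), the 69th smallest p of all genes. In wild type the difference was 22.3-fold (log2 4.48, SE 0.46, edgeR adjusted p = 0.00155). In Sl/Sl it was 3.19-fold (log2 1.68, SE 0.41, edgeR adjusted p = 0.0939), and 2.63 on the log2 scale without Sl/Sl clusters replicate 1. Without Sl/Sl clusters replicate 2 it was 1.11 and the call was lost, as it was without either Sl/Sl endothelium library. Mest shares 913 of its 2777 exon bases with Copg2 on the opposite strand, and without strand the reads there cannot be told apart. Copg2 had 22 to 233 counts in clusters and 191 to 392 in endothelium, against 731 to 17544 counts of Mest. How reads in the shared bases were assigned was not given, so these counts do not bound the part of Copg2 in Mest.

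Plagl1 (chr10:12810594-12851501, plus strand), a zinc finger transcription factor also called Zac1, was the other gene that differed in both genotypes. Its level was 165 and 80.2 CPM in wild type clusters, 237 and 235 CPM in Sl/Sl clusters, 1002 and 773 CPM in wild type endothelium, and 1227 and 845 CPM in Sl/Sl endothelium. The cell types did not overlap, and the 2 Sl/Sl cluster libraries were nearly equal. Plagl1 was 5.64-fold higher in endothelium (log2 2.50, SE 0.25, edgeR adjusted p = 0.000537). The difference was 7.24-fold in wild type (log2 2.86, SE 0.36, edgeR adjusted p = 0.00356) and 4.39-fold in Sl/Sl (log2 2.13, SE 0.35, edgeR adjusted p = 0.0208). It stayed called in both genotypes when any 1 library was left out, and the wild type value was then 2.39 to 3.47 on the log2 scale, lowest without wild type clusters replicate 2 and highest without wild type clusters replicate 1.

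Igf2 (chr7:149836673-149846940, minus strand), the fetal growth factor, signals through the receptors Igf1r and Insr. Its level was 818 and 223 CPM in wild type clusters, 823 and 590 CPM in Sl/Sl clusters, 1471 and 1277 CPM in wild type endothelium, and 1596 and 1293 CPM in Sl/Sl endothelium. The cell types did not overlap, and wild type clusters replicate 2 was by far the lowest library. Igf2 was 2.32-fold higher in endothelium (log2 1.22, SE 0.34, edgeR adjusted p = 0.0510). The call held without any 1 library, but the log2 value ran from 0.86 without wild type clusters replicate 2 to 1.83 without wild type clusters replicate 1. Within one genotype the difference was not called, with log2 values of 1.401 (SE 0.48) in wild type and 1.03 (SE 0.48) in Sl/Sl, at edgeR adjusted p of 0.151 and 0.366. The wild type value was 0.71 without wild type clusters replicate 2 and 2.62 without wild type clusters replicate 1, where it was called (edgeR adjusted p = 0.000934), as it was by DESeq2 (0.0259), without a filter on low counts (2.15e-06) and with a replicate block (0.0418). The Sl/Sl difference was called without wild type clusters replicate 1 (0.0394) or replicate 2 (0.0448) and without a filter on low counts (0.00217). Igf2 shares 98 of its 4236 exon bases with Igf2os on the opposite strand, which had 0 to 106 counts.

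H19 (chr7:149761437-149764051, minus strand), a long noncoding RNA that holds the miRNA Mir675, lies 72.6 kb from Igf2 on chromosome 7 and shares its enhancers. Its level was 749 and 206 CPM in wild type clusters, 943 and 593 CPM in Sl/Sl clusters, 1661 and 1639 CPM in wild type endothelium, and 1895 and 1712 CPM in Sl/Sl endothelium. As for Igf2, the cell types did not overlap and wild type clusters replicate 2 was lowest. H19 was 2.85-fold higher in endothelium (log2 1.51, SE 0.34, edgeR adjusted p = 0.0240), and the log2 value was 1.15 without wild type clusters replicate 2 and 2.12 without wild type clusters replicate 1. In wild type alone it was called (log2 1.79, SE 0.49, edgeR adjusted p = 0.0769), at 3.00 without wild type clusters replicate 1 and 1.11 without wild type clusters replicate 2. Without wild type endothelium replicate 1 or 2 that call was lost, at log2 1.78 and 1.80 and edgeR adjusted p of 0.126 and 0.125, and on the 4 wild type libraries alone it was lost at 0.143.

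The paired genes were also compared per exon length, as RPKM, reads scaled by exon length and library total. Igf2 stood at 0.466 to 0.674 of the H19 level in all 8 libraries, a narrow range beside the 3.69-fold spread of Igf2 over the cluster libraries. On centred log2 CPM over the 8 libraries, the genes nearest to Igf2 in pattern were Rab12, H19 and Cpd, with root mean square differences of 0.18, 0.19 and 0.20, beside a median of 1.27 over all genes. H19 was nearest to Igf2, then to Taok2 (0.20) and Cpd (0.22). These likenesses rest on the same 8 libraries and their depth, and are a description.

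Both genes that curb growth factor signals were higher in endothelium. Igf2r (chr17:12875272-12962572, minus strand), the receptor that takes up Igf2 for degradation, had 157 and 120 CPM in wild type clusters, 159 and 274 CPM in Sl/Sl clusters, 269 and 348 CPM in wild type endothelium, and 299 and 364 CPM in Sl/Sl endothelium. Only Sl/Sl clusters replicate 2 reached the endothelial range. Igf2r was 1.85-fold higher in endothelium (log2 0.89, SE 0.23, edgeR adjusted p = 0.0380), a call lost without wild type clusters replicate 2 (adjusted p = 0.110). Grb10 (chr11:11830502-11937423, minus strand), an adaptor that binds the insulin and Igf1 receptors and dampens them, had 203 and 99.2 CPM in wild type clusters, 159 and 456 CPM in Sl/Sl clusters, 581 and 419 CPM in wild type endothelium, and 591 and 406 CPM in Sl/Sl endothelium. Here too Sl/Sl clusters replicate 2 lay within the endothelial range. Grb10 was 2.32-fold higher in endothelium (log2 1.21, SE 0.35, edgeR adjusted p = 0.0602), and the call was lost without wild type clusters replicate 2 (0.130), wild type endothelium replicate 1 (0.109) or Sl/Sl endothelium replicate 1 (0.119).

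The other 4 genes did not pass the test. Peg3 (chr7:6658671-6683130, minus strand), a zinc finger protein, had 12.0 and 20.2 CPM in wild type clusters, 12.0 and 98.3 CPM in Sl/Sl clusters, 73.3 and 39.4 CPM in wild type endothelium, and 87.0 and 71.1 CPM in Sl/Sl endothelium. Meg3 (chr12:110779206-110809939, plus strand), a long noncoding RNA of the Dlk1 domain, had 73.2 and 17.5 CPM in wild type clusters, 15.8 and 162 CPM in Sl/Sl clusters, 123 and 85.6 CPM in wild type endothelium, and 148 and 99.5 CPM in Sl/Sl endothelium. For both, Sl/Sl clusters replicate 2 was the highest of all 8 libraries and its partner was among the lowest. The log2 differences were 1.16 (SE 0.58) for Peg3 and 0.84 (SE 0.65) for Meg3, at edgeR adjusted p of 0.237 and 0.464. Without Sl/Sl clusters replicate 2 both were called higher in endothelium, at log2 2.26 for Peg3 (edgeR adjusted p = 0.0205) and 2.09 for Meg3 (edgeR adjusted p = 0.0347). This is the library with 5211 CPM of mesenchymal markers. All 16 of them were detected in it, as they also were in wild type endothelium replicate 1, at 1796 CPM. The part of mesenchymal cells in the Peg3 and Meg3 values was not tested. Peg3 shares 865 of its 6624 exon bases with Peg3os, which was at 0 counts in every library. Those 865 bases are the whole of the Peg3os exons, and the assignment of shared reads was not given. The 0 counts therefore do not show that Peg3os was silent.

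Cdkn1c (chr7:150644244-150646955, minus strand), which codes for the cyclin-dependent kinase inhibitor p57, is known in blood for its part in stem cell quiescence. Its level was 160 and 102 CPM in wild type clusters, 162 and 272 CPM in Sl/Sl clusters, 256 and 214 CPM in wild type endothelium, and 295 and 204 CPM in Sl/Sl endothelium. The log2 difference of 0.52 (SE 0.25) had a 95% interval from -0.04 to 1.09 (edgeR adjusted p = 0.219). Sl/Sl clusters replicate 2 lay within the endothelial range and the other cluster libraries below it.

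Dlk1 (chr12:110691033-110701546, plus strand), a transmembrane protein with EGF-like repeats that is known to limit the expansion of blood stem cells in the AGM, was the exception among the 10 genes in having no higher estimate in endothelium. Its level was 23.6 and 4.59 CPM in wild type clusters, 14.9 and 34.8 CPM in Sl/Sl clusters, 14.7 and 11.52 CPM in wild type endothelium, and 10.3 and 18.8 CPM in Sl/Sl endothelium. The cell types overlapped, and the lowest library held 59 counts. The log2 difference was -0.44 (SE 0.68), with a 95% interval from -1.97 to 1.09 (edgeR adjusted p = 0.743). Its sign turned to 0.37 when wild type clusters replicate 1 was left out.

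Dlk1 and Meg3 lie 77.7 kb apart on chromosome 12 and share an imprinted domain, but differed in pattern. By RPKM, Dlk1 stood at 0.188 to 0.510 of the Meg3 level in endothelium. In clusters the wild type libraries had ratios of 0.867 and 0.706 and the Sl/Sl libraries of 2.55 and 0.579, so every cluster library exceeded every endothelium library. The genes nearest to Dlk1 over the 8 libraries were Zfp346, Gnal and Trip6, with root mean square differences of 0.30, 0.40 and 0.45, and Meg3 ranked 5431st at 1.05, beside a median of 1.19 over all genes.

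**Figure D2:**
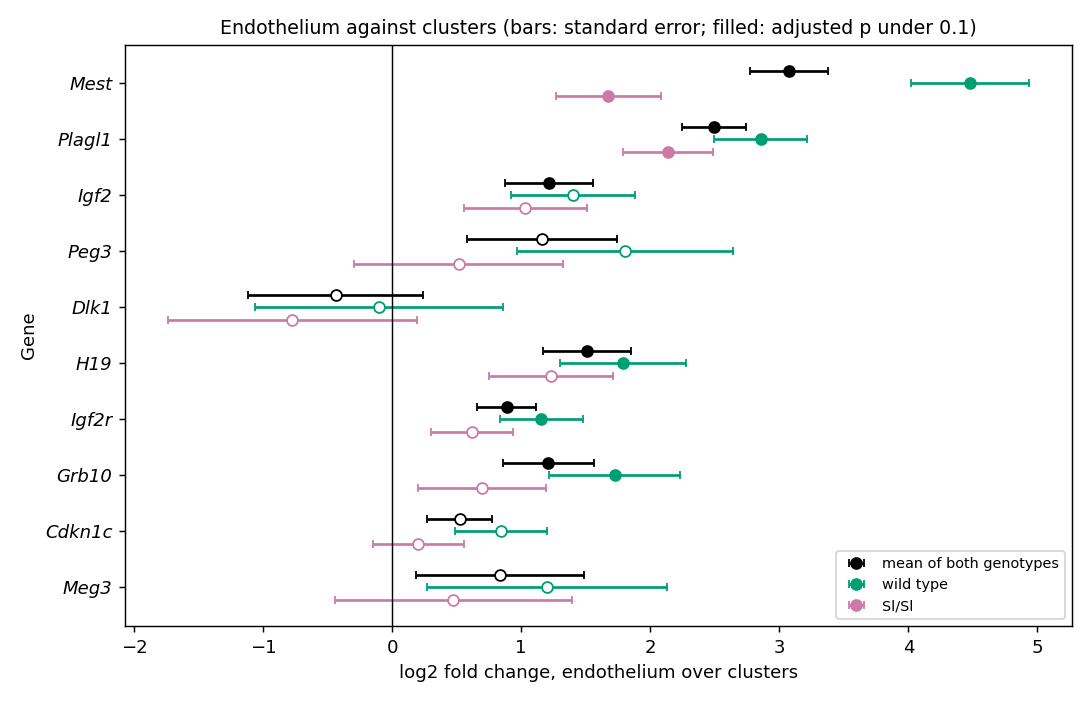
Log2 fold change of endothelium over clusters for each gene, as the mean over both genotypes, in wild type and in Sl/Sl, with standard errors as bars and filled points for an adjusted p under 0.1. Mest and Plagl1 are filled in all 3 comparisons, and Dlk1 is the gene with points below 0, from -0.10 to -0.77, each with a bar that crosses 0.

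Within one genotype the counts were lower. In wild type, 5 of the 10 genes were called, all higher in endothelium (Mest, Plagl1, H19, Igf2r and Grb10), beside 8.24% of all genes called and 4.56% called higher. In Sl/Sl, 2 were called (Mest and Plagl1), beside 2.83% of all genes called and 0.985% called higher. The median log2 fold changes of the 10 genes were 1.56 and 0.66, beside -0.0032 and -0.07 over all genes. The wild type count fell to 2 without either wild type endothelium library and to 3 without wild type clusters replicate 2. The Sl/Sl count was 1 without Sl/Sl clusters replicate 2 or either Sl/Sl endothelium library, and 4 without either wild type cluster library. All 4 endothelium libraries lay above all 4 cluster libraries for 4 of the 10 genes (Igf2, H19, Mest and Plagl1), as for 10.1% of all genes.

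By RPKM, which allows levels of different genes to be set side by side, H19 was the highest of the 10 genes in every group, at 195 ± 161 RPKM in wild type clusters, 304 ± 88.5 RPKM in Sl/Sl clusters, 607 ± 22.2 RPKM in endothelium of wild type embryos and 655 ± 56.9 RPKM in that of Sl/Sl embryos (mean ± SD, n = 2). Mest ranked 2 in endothelium, at 496 ± 4.91 RPKM in wild type and 456 ± 86.2 in Sl/Sl. In wild type clusters it ranked 6, at 24.3 ± 0.321 RPKM, level with Plagl1 at 24.7 ± 12.9. Igf2 (312 ± 39.6), Plagl1 (163 ± 34.0), Cdkn1c (117 ± 18.0), Grb10 (93.5 ± 23.8) and Igf2r (33.2 ± 5.07) followed in wild type endothelium, where only Cdkn1c and Grb10 had overlapping libraries. The lowest were Peg3 (8.23 ± 3.70), Meg3 (7.75 ± 2.16) and Dlk1 (2.63 ± 0.522), of which Peg3 and Meg3 overlapped. In wild type clusters the same 3 genes were lowest, at 2.54 to 3.73 RPKM, and overlapped one another. The order by RPKM depends on the exon length of each gene model, 12956 bases for Meg3 and 6624 for Peg3. By CPM, Meg3 was above Peg3 in wild type endothelium, at means of 104 and 56.4.

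Over the 4 libraries of both genotypes, the spread was wider in clusters than in endothelium for 10 of the 10 genes. The share of all genes with a wider spread in clusters was not computed, so the count is a description only. From the lowest to the highest of 4 libraries, Meg3 differed 10.3-fold in clusters and 1.73-fold in endothelium, and Mest 9.83-fold and 1.34-fold. The Mest value in clusters takes in the difference between genotypes, since its replicates differed 1.03-fold in wild type and 2.87-fold in Sl/Sl. The narrowest in clusters was Igf2r, at 2.29-fold.

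Sl/Sl against wild type asked what loss of the Kit ligand does to each cell type. In clusters none of the 10 genes was called, as 0% of all genes were, and 2 of the 10 (Mest and Plagl1) had an unadjusted p under 0.05, as did 587 genes in all. The estimates of all 10 genes were above 0, with a median of 0.88 on the log2 scale beside 0.03 over all genes, while 51.9% of all genes had an estimate above 0. The 10 genes are measured in the same 4 libraries and are no independent evidence of one direction. Both Sl/Sl libraries lay above both wild type libraries for 4 of the 10 (Cdkn1c, Mest, Plagl1 and Igf2r), as for 17.4% of all genes. DESeq2 called 1 of the 10 (Mest) and 175 of the 12865 genes it tested. Without a filter on low counts edgeR called 3 (Mest, Plagl1 and Grb10) and 253 of 17077 genes tested.

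Mest was the gene with the largest estimate. Its 620 and 216 CPM in Sl/Sl clusters lay above the 63.1 and 65.3 CPM of wild type clusters, a fitted fold of 6.51 (log2 2.70, SE 0.42, 95% interval 1.75 to 3.66). Its p of 0.000113 in edgeR ranked 9th of all genes, and the adjusted p was 0.172. It was called with at least 10 counts in every library (adjusted p = 0.0596), by DESeq2 (1.09e-07) and without a filter (1.08e-18). It was also called in 5 of the 8 fits that left out 1 library, including those without Sl/Sl clusters replicate 1 (log2 1.75, adjusted p = 0.0710) and without Sl/Sl clusters replicate 2 (log2 3.27, adjusted p = 0.000560), and the adjusted p without wild type clusters replicate 2 was 0.257. Copg2, which shares bases with Mest, had 22 and 115 counts in wild type clusters and 233 and 175 in Sl/Sl clusters (log2 1.53, SE 0.88).

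Plagl1, at 237 and 235 CPM in Sl/Sl clusters, was 1.92-fold the wild type level (log2 0.94, SE 0.34, 95% interval 0.18 to 1.71, edgeR adjusted p = 1). The estimate was 0.51 without wild type clusters replicate 2 and 1.56 without wild type clusters replicate 1, and it was called in none of the 8 fits that left out 1 library. Peg3 had an estimate of 1.77 (SE 0.83), which turned to -0.42 without Sl/Sl clusters replicate 2. Meg3, at 0.97 (SE 0.93), turned to -1.52 without that library. Grb10 and Igf2r, at 1.02 and 0.64, were 0.07 and 0.20 without it.

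Igf2 and H19 instead moved with the wild type libraries. Their estimates of 0.44 (SE 0.47) and 0.68 (SE 0.48) were -0.22 and 0.03 without wild type clusters replicate 2, the library with the lowest sum of endothelial markers. Without wild type clusters replicate 1 they were 1.67 and 1.90, and both were called, at edgeR adjusted p of 0.0592 and 0.0380. Cdkn1c had an estimate of 0.73 (SE 0.35), which was 0.31 without Sl/Sl clusters replicate 2 and 1.09 without wild type clusters replicate 1. Dlk1 had one of 0.82 (SE 0.96) with a 95% interval from -1.35 to 2.99, which was 0.07 without wild type clusters replicate 2 and 2.44 without wild type clusters replicate 1.

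**Figure D3:**
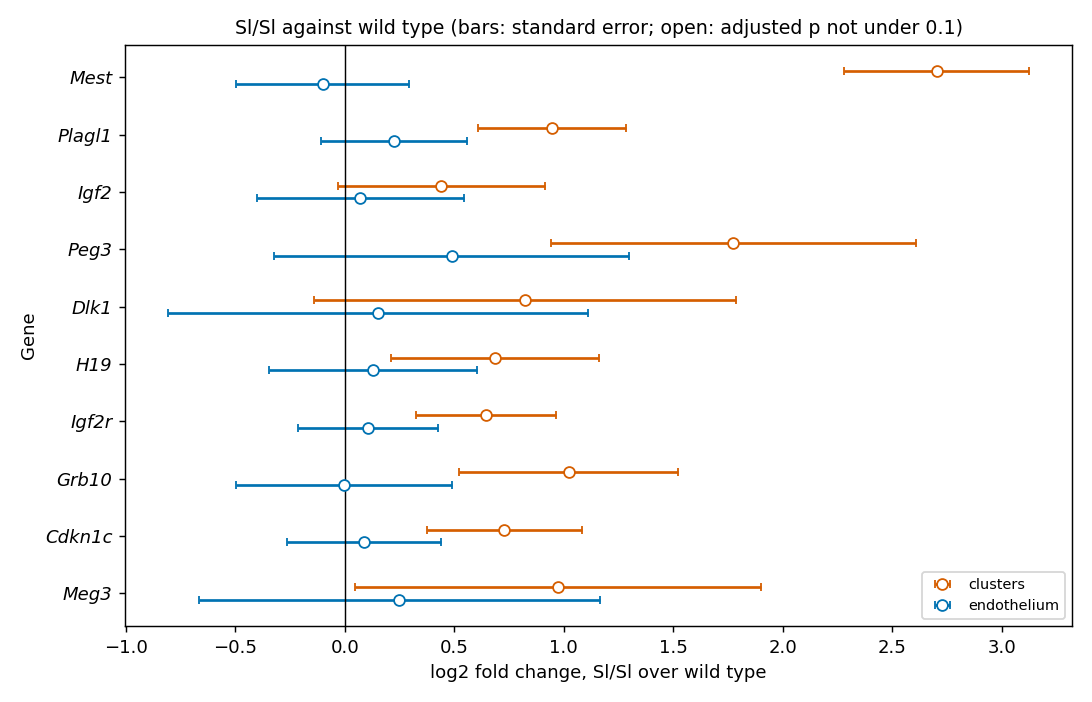
Log2 fold change of Sl/Sl over wild type for each gene, in clusters and in endothelium, with standard errors as bars and open points throughout because no adjusted p was under 0.1. All 10 cluster estimates are above 0, with Mest at 2.70, while the endothelium estimates lie between -0.10 and 0.49.

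In endothelium the genotypes gave closer values. None of the 10 genes was called, as 0% of all genes, and none had an unadjusted p under 0.05, as 580 of all genes did. DESeq2 called none of the 10 and 178 of the 13189 genes it tested. Estimates ran from -0.10 for Mest to 0.49 for Peg3. Mest had a 95% interval from -0.99 to 0.79, Igf2 from -0.99 to 1.13 and Dlk1 from -2.01 to 2.31, so a 2-fold difference in Dlk1 was not detectable with these libraries. The genotypes did not overlap for 1 of the 10 genes, H19, at 1661 and 1639 CPM in wild type and 1895 and 1712 CPM in Sl/Sl, as for 30.2% of all genes.

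The difference between these 2 genotype effects was tested as an interaction, in which all 4 groups enter. No gene of the 10 was called, as 0% of all genes. Mest alone of the 10 had an unadjusted p under 0.05, as did 736 genes in all. All 10 estimates were below 0, a lesser Sl/Sl excess in endothelium than in clusters, with a median of -0.70 beside -0.10 over all genes. Of all genes, 46.3% had an estimate above 0. The 10 genes are measured in the same libraries and are no independent evidence of a shared direction. Mest had an interaction of -2.80 on the log2 scale (SE 0.57, 95% interval -4.09 to -1.52, edgeR adjusted p = 0.899), the 12th smallest p of all genes. DESeq2 called it (adjusted p = 0.00165) among 175 genes in all, as did edgeR without a filter on low counts (1.60e-10) and without Sl/Sl clusters replicate 2 (0.00627), while without Sl/Sl clusters replicate 1 the value was -1.86 (0.412). These comparisons share libraries, and an excess of Mest in Sl/Sl clusters and a smaller cell type difference in Sl/Sl are the same values seen from both sides.

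Markers of other cells moved with several of these values. Within clusters, the order of the endothelial sum (439, 782, 1261 and 2892 CPM) placed wild type replicate 2 lowest and Sl/Sl replicate 1 highest, and the lowest Igf2 and H19 and the highest Mest and H19 were in these same libraries. Mest did not follow this order throughout, since its lowest level (63.1 CPM) was in wild type clusters replicate 1, at 1261 CPM of endothelial markers, and Sl/Sl clusters replicate 2 had 216 CPM at 782. None of the 12 endothelial markers was at 0 in any library. Their median log2 fold change was 0.94 in Sl/Sl against wild type clusters, with 11 of 12 estimates above 0, 5 at an unadjusted p under 0.05 and 0 called. The 16 mesenchymal markers had a median of 1.30, with 14 above 0, 1 at an unadjusted p under 0.05 and 0 called, and their sum was highest in the library with the highest Peg3, Meg3, Dlk1, Cdkn1c, Grb10 and Igf2r among clusters. Skeletal muscle markers summed to 353 and 444 CPM in Sl/Sl clusters and 8.14 to 60.1 CPM elsewhere. Most of the sum in Sl/Sl clusters was Actc1, at 4078 and 4692 counts there and 7 to 250 elsewhere. Of the 8 markers, 6 were at 0 in Sl/Sl clusters replicate 1 and 3 in replicate 2. Pax3 and Pax7 were at 0 in every library. Macrophage markers summed to 264 to 855 CPM in clusters and 6.92 to 35.0 CPM in endothelium. The 8 germ cell markers, a list that includes Kit, summed to 242.5 to 478 CPM in clusters and 93.5 to 117 CPM in endothelium. Of 5 tested, 2 were called lower in endothelium and 3 had estimates above 0. Dppa3 had 889 counts in wild type clusters replicate 1 and 0 elsewhere, and Pou5f1 was at 0 in every library. Ddx4 had 4 to 187 counts in clusters and 0 to 1 in endothelium. Neural crest and sympathetic markers summed to 17.0 to 64.2 CPM in clusters and 364 to 840 CPM in endothelium, with Stmn2 at 11 to 632 and 3004 to 9518 counts. Erythroid markers summed to 24.4 to 266 CPM, hepatoblast markers to 58.3 to 113 CPM, and mesonephric and gonadal markers to at most 32.4 CPM. The 12 hematopoietic markers summed to 1641 to 2107 CPM in clusters and 1218 to 1327 CPM in endothelium. Of these, 10 were called lower and 1 higher in endothelium. The higher gene was Cd34, at 9715 to 13697 counts in endothelium and 4884 to 7799 in clusters. The next highest of the 12 in endothelium were Kit, at 538 to 1065 counts, and Laptm5, at 563 to 876, so the endothelial sum was mostly Cd34. Of the 12 endothelial markers, 11 were called higher. The part of any of these cells in the values of the 10 genes was not tested.

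**Figure D4:**
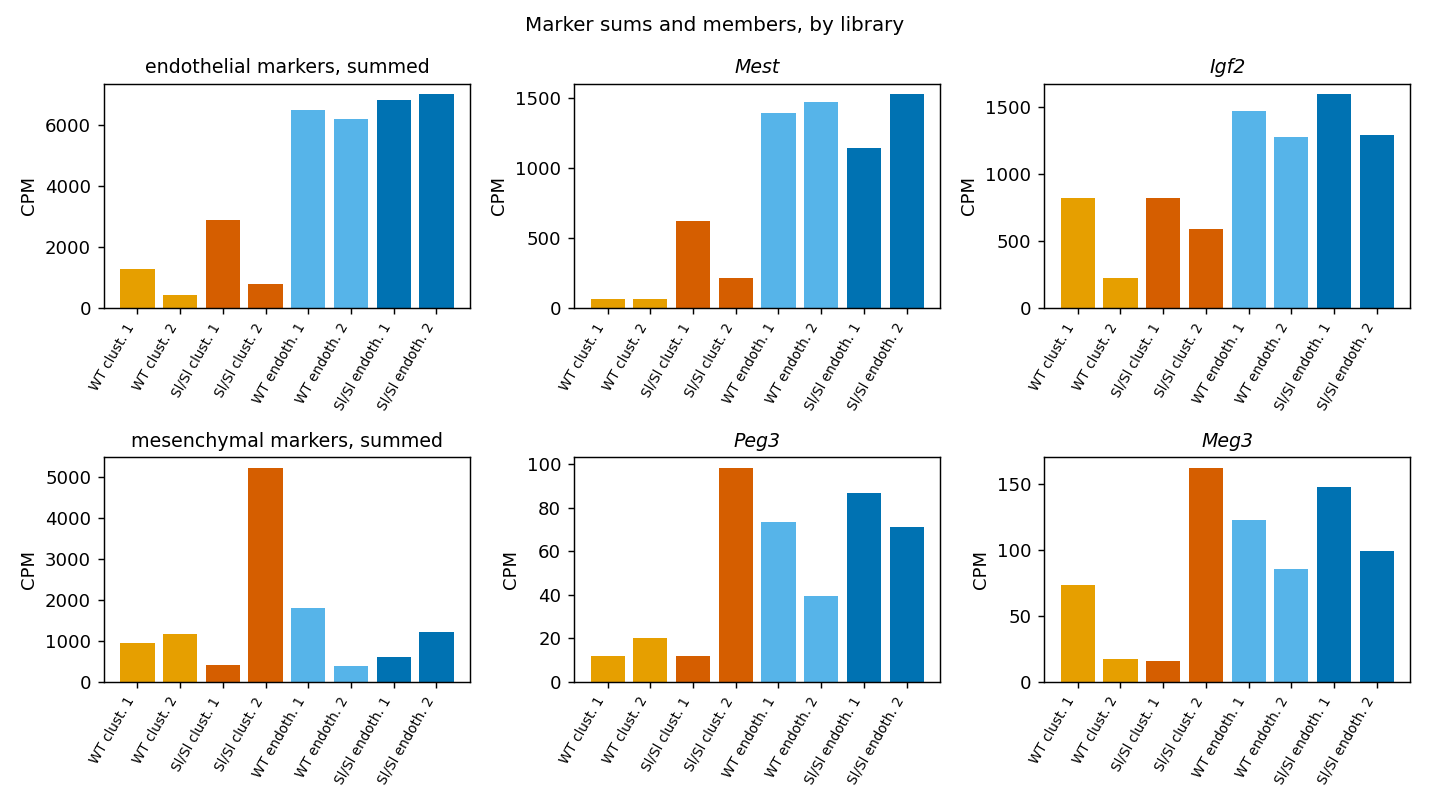
Summed endothelial and mesenchymal markers beside 4 of the genes, in CPM per library, 1 bar per library with axes from 0. The mesenchymal sum, Peg3 and Meg3 are highest in Sl/Sl clusters replicate 2, and the endothelial sum and Igf2 are lowest in wild type clusters replicate 2.

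Other genes of the same kinds were followed from lists. Of 53 further imprinted genes, 52 were in the table and 43 were tested, of which 7 were higher and 3 lower in endothelium, beside 8.48% of all genes called higher and 8.12% called lower. Their median log2 fold change was 0.57, beside -0.07 over all genes. The leading higher genes were Sgce (log2 1.95, SE 0.24, edgeR adjusted p = 0.00142), Cd81 (log2 1.03, SE 0.17, edgeR adjusted p = 0.00566), Ndn (log2 1.05, SE 0.24, edgeR adjusted p = 0.0239) and Airn (log2 1.98, SE 0.53, edgeR adjusted p = 0.0455). Airn, the transcript antisense to Igf2r that silences its paternal copy, shares no exon bases with Igf2r in the gene models counted. It had 90 to 393 counts in clusters and 466 to 823 in endothelium. Of the 3 lower genes, Slc22a3 had 106 to 586 counts in clusters and 1 to 41 in endothelium (log2 -5.56, SE 1.01, edgeR adjusted p = 0.00935). Phlda2 had 83 to 850 and 0 to 280 counts (log2 -4.36, SE 0.93, edgeR adjusted p = 0.0188), and Nap1l5 had 16 to 77 counts in clusters and 0 in endothelium, at least 12.7-fold lower against a floor of 3 counts per library (edgeR adjusted p = 0.0582). Slc22a3 is imprinted together with Igf2r in the placenta, and Phlda2 is a maternally expressed growth restrainer of the Cdkn1c domain.

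The Igf axis was tested as 17 of its 21 listed genes, with 5 higher and 1 lower in endothelium, beside 8.48% and 8.12% of all genes, and a median of 0.40 beside -0.07. Igf1, the other ligand of the pathway, was at 40.7 to 173 CPM in clusters and 270 to 400.3 CPM in endothelium (log2 2.16, SE 0.21, edgeR adjusted p = 0.000443). In Sl/Sl against wild type clusters its estimate was 1.86 (SE 0.29, edgeR adjusted p = 0.172), beside 2.70 for Mest. Of 7 genes for Igf binding proteins tested, 3 were higher in endothelium and 0 lower. They were Igfbp3 (log2 3.80, SE 0.51, edgeR adjusted p = 0.00228), Igfbp2 (log2 2.44, SE 0.28, edgeR adjusted p = 0.00103) and Igfbp4 (log2 0.96, SE 0.25, edgeR adjusted p = 0.0393), and the other 4 had log2 estimates between -2.93 and 5.13 at adjusted p of 0.130 to 0.875. Stc2, an inhibitor of the protease that frees Igf from its binding proteins, was the lower gene, at 22 to 54 counts in clusters and 0 to 1 in endothelium (edgeR adjusted p = 0.0880).

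Of 8 genes that maintain imprints, 6 were tested, with 1 higher and 1 lower in endothelium and a median of -0.64. Zfp57, a zinc finger protein that binds methylated imprinting control regions, was higher in endothelium (log2 1.24, SE 0.41, edgeR adjusted p = 0.0889). Trim28, the corepressor that it recruits, was lower (log2 -0.62, SE 0.18, edgeR adjusted p = 0.0610). The 4 relatives of Plagl1 and Cdkn1c (Plag1, Plagl2, Cdkn1a and Cdkn1b) had a median of -0.84, with 0 of 4 estimates above 0 and edgeR adjusted p between 0.177 and 0.927.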

How the data were processed

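The authors deposited raw read counts per gene, neither normalized nor pooled, for 8 Smart-seq2 libraries of 100 sorted cells. The submitters' processing notes name STAR 2.4.2a, featureCounts of Subread 1.4.5, DESeq2 1.12.4 and mm9 (NCBI37). The gene annotation, the strand setting and the handling of reads matching several places were not given in the sources used here. Reads in bases shared by genes that overlap may therefore have been counted for either gene, for both or for none. No exon of the table lay past the end of any of 21 NCBI37 chromosomes. The table's Length column, deposited beside the counts, was used for RPKM.

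From the counts, CPM (TMM-scaled totals) and RPKM (plain totals) were computed, and log2 CPM with a prior count of 2. Tests used edgeR 4.0.16 (glmQLFit and glmQLFTest, 1 mean per group, all 8 libraries in 1 fit, limma 3.58.1, R 4.3.3) after filterByExpr with a minimum count of 10, which kept 13908 of 24015 genes. The common dispersion was 0.667. Genes were called at a Benjamini-Hochberg adjusted p under 0.1 over all genes tested, and intervals are 95%. The cell type contrasts (over both genotypes, in wild type, in Sl/Sl), the genotype contrasts (clusters, endothelium) and their interaction were fitted. Scripts were tested on simulated data.

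The 10 genes and the lists (other imprinted genes, Igf axis, imprint maintenance, Plag and Cip/Kip relatives, and markers of endothelial, hematopoietic, mesenchymal, mesonephric and gonadal, hepatoblast, skeletal muscle, neural crest and sympathetic, germ, erythroid and macrophage cells) were chosen with earlier results of these data known. Named genes are the 10 genes, Kitl and Kit, up to 4 called higher and 4 lower of each of the first 4 lists by smallest p, and the 3 genes nearest in pattern to Igf2, H19 and Dlk1. Copg2, the sort markers Ptprc, Itga2b and Cdh5, and Cd34, Laptm5, Ddx4, Actc1, Stmn2, Dppa3, Pou5f1, Pax3 and Pax7 were named after their values were seen. So were the relatives Plag1, Plagl2, Cdkn1a and Cdkn1b. A fold against a group at 0 counts used a floor of 3 counts per library. Alternatives were DESeq2 1.42.0, RLE size factors, no filter, at least 10 counts in every library, leaving out each library, a replicate block, edgeR on the 4 libraries compared, an adjusted p under 0.05, and TMM-scaled totals for RPKM. Replicates correlated at a Spearman coefficient of 0.917 to 0.923 across genes, and no pair was a copy. Intervals cover the spread between these libraries, and reads without molecular identifiers are not independent molecules.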

Additional observations from a re-analysis of the deposited data

How the results depend on the processing

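Counts of genes called out of all genes tested, and of the 10 genes called, moved with the tool and the filter, and the cause was not tested. DESeq2 tested 12865 to 14163 genes by comparison, and edgeR without a filter tested 17077. DESeq2 on the 8 libraries called 3614 genes over both genotypes, 2613 in wild type, 1631 in Sl/Sl, 175 in the genotype comparison of clusters, 178 in that of endothelium and 175 for the interaction, with 1 of the 10 genes in clusters and 1 for the interaction. Without a filter on low counts, edgeR called 1990 genes in wild type (8 of the 10), 1266 in Sl/Sl (4 of the 10), 253 between genotypes in clusters (3 of the 10), 65 in endothelium and 179 for the interaction (1 of the 10), and the estimate of Grb10 between genotypes in endothelium turned from -0.0046 to 0.0013. With at least 10 counts in every library, 9 genes differed between genotypes in clusters (1 of the 10), and calls in Sl/Sl between cell types were 137 higher and 132 lower in endothelium, against 137 and 256. At an adjusted p under 0.05, 1488 genes were called over both genotypes, 657 in wild type (2 of the 10) and 222 in Sl/Sl (1 of the 10). On the 4 libraries compared, edgeR called 211 genes in Sl/Sl between cell types (1 of the 10) and 2 genes between genotypes in endothelium. Where an alternative called genes between genotypes in clusters, most were higher in Sl/Sl, 243 of 253 without a filter and 164 of 175 by DESeq2. RLE size factors in place of TMM lost the call of Grb10 in wild type, at an adjusted p of 0.102. Outside the fits that left out a library, 373 values kept their direction and call, 17 gained a call, 9 lost one and 1 turned. With TMM-scaled totals, 4 of the 40 RPKM levels moved by over 1 SD: H19 in wild type endothelium to 631, Mest in wild type clusters to 23.1 and in wild type endothelium to 516, and Plagl1 in Sl/Sl clusters to 44.8.

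With the replicate number as a block (replicate block), 8 genes were called between genotypes in clusters, and Igf2 in wild type was called at a log2 fold change of 1.59 (adjusted p = 0.0418). The numbers did not pair the libraries: correlations of the difference between replicates 1 and 2 ran from -0.11 to 0.16 over the pairs of groups, so the block is given as an alternative only.

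Leaving out each library in turn, genes called ran from 592 to 1329 in wild type (2 to 6 of the 10 genes), 182 to 633 in Sl/Sl (1 to 4 of the 10), 6 to 76 between genotypes in clusters (0 to 3 of the 10), 0 to 1 in endothelium and 0 to 27 for the interaction (0 to 1 of the 10). These fits tested more genes, since the filter allowed for a smaller group, and a group left with 1 library took its spread from the others. The sign turned for some genes that were not called. Between cell types, Dlk1 ran from -0.84 to 0.37 over both genotypes and from -0.88 to 1.51 in wild type, and in Sl/Sl, Meg3 ran from -0.39 to 2.97, Cdkn1c from -0.12 to 0.62 and Peg3 from -0.31 to 2.72. Between genotypes in clusters, Igf2 ran from -0.22 to 1.67, Meg3 from -1.52 to 2.34 and Peg3 from -0.42 to 2.61. Between genotypes in endothelium, Grb10 ran from -0.30 to 0.25, Igf2r from -0.067 to 0.32, Igf2 from -0.084 to 0.21, Cdkn1c from -0.20 to 0.32, Meg3 from -0.061 to 0.53, Mest from -0.33 to 0.098, Plagl1 from -0.065 to 0.46 and Dlk1 from -0.35 to 0.53. For the interaction, Igf2 ran from -1.59 to 0.29, H19 from -1.77 to 0.096, Dlk1 from -2.28 to 0.078, Meg3 from -2.10 to 1.77 and Peg3 from -2.12 to 0.91.

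Each group has 2 libraries of 100 cells. Dlk1 had the lowest value of the 10 genes, 59 counts, and the effect of depth on each gene was not tested. Reads were amplified without molecular identifiers, so counts overstate the number of molecules.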
